A study of Mus musculus with 4 samples.

Results

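Dividing macrophages of the mouse liver were taken as cells that carried transcripts of complement C1q together with transcripts of the proliferation genes Mki67 and Top2a. Members were chosen by these measured counts: a cell had to hold at least 10 UMIs of C1qa, C1qb and C1qc together, at least 2 UMIs of Mki67 and Top2a together, and no UMI of Cd3d, Cd3e, Cd3g, Cd79a or Cd79b, where a UMI is 1 counted RNA molecule. Of 31290 cells kept from 4 libraries, 2735 met the macrophage part of this rule and 203 of them were dividing. The dividing cells numbered 21 in the NCD library, 37 and 126 in HFD replicates 1 and 2, and 19 in the JQF library. They were compared with 2307 macrophages that held no UMI of Mki67 or Top2a, while 225 macrophages with exactly 1 such UMI were set aside.

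All libraries came from livers of male C57BL/6J mice. The NCD group ate normal chow and was gavaged with distilled water, the HFD group ate a diet of 60% fat with distilled water, and the JQF group ate the same diet and was gavaged with Jiangtang Qingre Formula, a herbal formula. According to the methods of the study, mice arrived at 5 weeks of age, the diet ran for 14 weeks before treatment, and treatment lasted 8 weeks. Livers were digested, red blood cells were lysed and dead cells were removed, so the cells are those that survived this preparation. There was 1 NCD library, 2 HFD libraries and 1 JQF library, and the methods give the same number of mouse livers for each group. The labels call the material hematopoietic stem cells and immune cells, which does not describe the mixture of liver cells measured. The libraries held 5975 to 10259 kept cells with medians of 7608 to 13081 UMIs per cell, NCD being the deepest, and any pair of them shared 12 to 27 barcodes, at most 0.316% of the smaller library.

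The liver holds resident macrophages, the Kupffer cells, which line the sinusoids, take up particles and worn red cells, and renew themselves by local division. Monocytes from the blood can enter the tissue, become macrophages and in a fatty liver take on a lipid-associated state. Resident Kupffer cells are known for Timd4, a receptor for phosphatidylserine on dying cells, and Cd163, a receptor for haemoglobin bound to haptoglobin. Recruited cells are known for Ccr2, the receptor for the chemokine Ccl2, for Cx3cr1, the fractalkine receptor, and, in the lipid-associated state, for Trem2, a lipid-sensing receptor. In the cycle of any of these cells, helicase loading and DNA synthesis come first, and the kinases, motors and spindle proteins of mitosis are made later.

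The gene pair that chose the cells lies at chromosome 7, 135689784 to 135716361 (Mki67, minus strand) and chromosome 11, 98992943 to 99024189 (Top2a, minus strand) of GRCm38. Mki67 encodes a protein that coats mitotic chromosomes, and Top2a encodes the topoisomerase that untangles DNA strands. Promoters of late cell cycle genes are known for the CCAAT box, which NF-Y binds, and for the cell cycle homology region (CHR), which MuvB complexes bind. The CHR was searched as TTTGAA and, in its other form, as TTCGAA. Both motifs were searched on both strands, and their letters do not overlap each other. The 200 bases before the RefSeq start of both rule genes and of 4 genes that moved with them are shown from 5′ to 3′ on the gene's strand (build GRCm38.p6), because the members share these genes' expression. Capitals mark matches of the CCAAT box and the CHR on either strand.
Mki67, chr7:135716380-135716579, minus strand: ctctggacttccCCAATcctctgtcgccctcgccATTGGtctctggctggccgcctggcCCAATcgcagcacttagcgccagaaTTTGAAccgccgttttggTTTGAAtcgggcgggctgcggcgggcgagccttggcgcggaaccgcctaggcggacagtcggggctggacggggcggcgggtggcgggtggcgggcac
Top2a, chr11:99024190-99024389, minus strand: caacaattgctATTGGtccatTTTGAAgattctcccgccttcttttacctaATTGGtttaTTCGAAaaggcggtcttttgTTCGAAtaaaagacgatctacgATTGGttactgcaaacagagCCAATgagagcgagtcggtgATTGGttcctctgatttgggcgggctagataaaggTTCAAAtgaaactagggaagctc
Cdk1, chr10:69352913-69353112, minus strand: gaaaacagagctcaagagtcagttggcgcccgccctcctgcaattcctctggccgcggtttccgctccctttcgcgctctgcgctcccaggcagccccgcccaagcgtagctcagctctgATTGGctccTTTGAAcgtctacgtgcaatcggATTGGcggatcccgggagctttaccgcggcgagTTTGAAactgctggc
Ccnb2, chr9:70421555-70421754, minus strand: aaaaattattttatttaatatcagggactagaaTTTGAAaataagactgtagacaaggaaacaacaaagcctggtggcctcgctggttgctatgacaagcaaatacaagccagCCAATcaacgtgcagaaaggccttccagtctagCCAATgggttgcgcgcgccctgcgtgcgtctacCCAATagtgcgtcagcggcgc
Pclaf, chr9:65890123-65890322, plus strand: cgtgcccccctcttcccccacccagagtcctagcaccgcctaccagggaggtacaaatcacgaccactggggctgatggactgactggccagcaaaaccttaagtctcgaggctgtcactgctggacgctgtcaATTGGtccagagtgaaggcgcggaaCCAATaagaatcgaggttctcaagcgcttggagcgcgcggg
Rrm2, chr12:24708054-24708253, plus strand: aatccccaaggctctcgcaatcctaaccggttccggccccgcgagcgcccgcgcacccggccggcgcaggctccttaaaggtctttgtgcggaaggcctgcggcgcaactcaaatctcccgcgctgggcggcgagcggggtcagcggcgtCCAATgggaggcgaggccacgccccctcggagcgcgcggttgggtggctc
Mki67 held 3 CCAAT and 2 CHR matches in this window, and Top2a held 5 CCAAT, 2 TTTGAA and a further 2 CHR matches of the other form. Cdk1, the kinase that starts mitosis, and Ccnb2, its cyclin B partner, held both kinds, whereas Pclaf and Rrm2, which act in DNA synthesis, held CCAAT alone and Birc5, not shown, held neither. Over the 250 bases before the start, both kinds stood together in 1978 of 32851 promoters of the reference, or 6.02%. They stood together in 14 of 41 promoters of the mitosis list (39 of its 45 genes matched) and in 5 of 34 promoters of the licensing and replication list (27 of 33 genes). In the Kupffer cell list, 0 of 17 promoters held both, and in the lipid-associated list 1 of 18 did. A match is a description of the letters and no evidence of binding.

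The other cycling markers are given as a description with no test, because the rule reaches their values through cells chosen for Mki67 and Top2a. Birc5 (survivin, a part of the chromosomal passenger complex), Pclaf (a PCNA-binding factor) and Rrm2 (the small subunit of ribonucleotide reductase) together stood at 3.50 CPM (UMIs of a gene as parts of all UMIs of the class in a library, scaled to the same total) in macrophages with no Mki67 or Top2a UMI. The sum was 6.26 CPM in the cells with 1 UMI, just outside the threshold, and 82.9 CPM in the 68 cells with exactly 2 UMIs, just inside it. It rose with the count to 192 CPM at 3 to 5 UMIs, 269 CPM at 6 to 10 and 890 CPM at 11 or more. Of the cells with exactly 2 UMIs, 27.9% carried any of the 3 genes, against 96.7% of the 61 cells with 11 or more. The members just inside the threshold thus carried the weakest cycling signature.

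**Figure D1:**
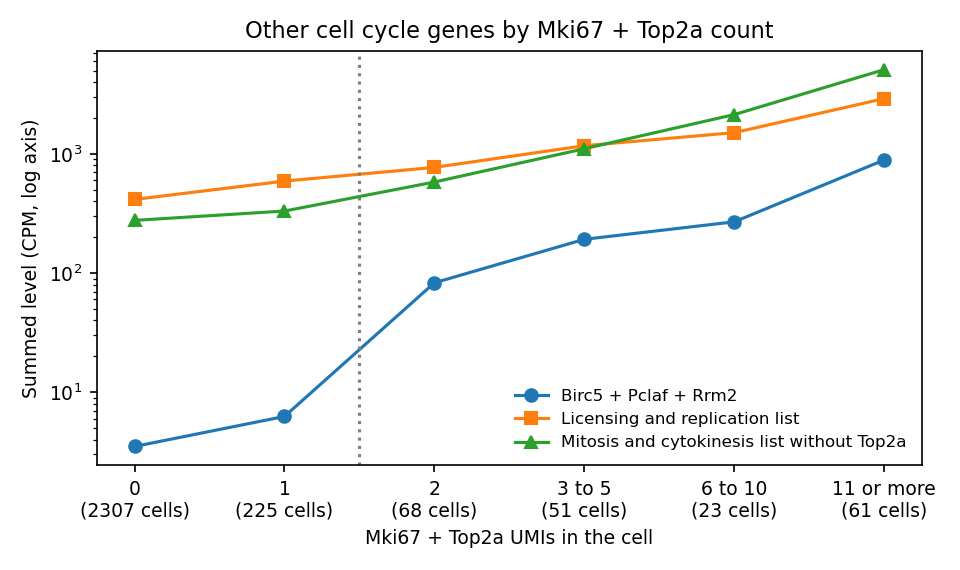
Summed level of other cell cycle genes (CPM, log axis) in macrophages of all 4 libraries by the number of Mki67 and Top2a UMIs in the cell, with the number of cells under each step and the threshold of the rule as a dotted line. Birc5, Pclaf and Rrm2 go from 3.50 CPM at 0 UMIs through 82.9 CPM at 2 UMIs to 890 CPM at 11 or more.

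The libraries differed in how far their members passed the threshold. The median dividing cell held 7 Mki67 and Top2a UMIs in NCD, 5 and 4 in HFD replicates 1 and 2, and 2 in JQF. Mki67 stood at 263, 320.1, 283 and 188 CPM in dividing cells, given here and in all lists of 4 values in the order NCD, HFD replicate 1, HFD replicate 2 and JQF. Top2a stood at 172, 354, 247 and 145 CPM. JQF was lowest for both rule genes.

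As shares of UMIs, genes of DNA synthesis stood low in NCD. The summed licensing and replication list (the Mcm helicase, its loaders, the clamp Pcna and the polymerases) reached 835 CPM in NCD dividing cells, 2236 and 1998 CPM in HFD and 1270 CPM in JQF, against 410 to 454 CPM in non-dividing cells. The summed mitosis and cytokinesis list with Top2a reached 2219 CPM in NCD, 4077 and 2922 CPM in HFD and 1735 CPM in JQF, against 240 to 327 CPM in non-dividing cells. Per dividing cell the licensing list held 26.0, 44.7, 37.9 and 24.9 UMIs and the mitosis list 69.0, 81.6, 55.4 and 34.0. NCD cells, which held the most UMIs, were thus near JQF for licensing and above HFD replicate 2 for mitosis. Mcm5, a subunit of the replicative helicase, stood at 13.8, 101, 78.3 and 43.0 CPM in dividing cells, with 9 UMIs in NCD, and at 6.69 to 12.02 CPM in non-dividing cells. Tyms, which makes thymidylate, stood at 4.59, 98.6, 57.4 and 77.9 CPM in dividing cells. Counted cell by cell and without Top2a, 17 of 21 NCD cells held more mitosis than licensing UMIs, as did 22 of 37 and 68 of 126 HFD cells and 8 of 19 JQF cells. The share was highest in NCD and lowest in JQF, in the same order as the Mki67 and Top2a UMIs that chose the cells, and with 1 library behind each end.

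Of the listed genes tested between dividing and non-dividing macrophages, higher calls came to 30 of 31 in licensing and replication, 43 of 44 in mitosis, 17 of 27 among cyclins, CDKs and their inhibitors, and 9 of 14 in nucleotide synthesis. These counts follow from the rule and support nothing. Over all 10025 genes tested, 5.67% were called, 4.31% higher and 1.36% lower in dividing cells (432 and 136 genes). Cdk1 stood at 50.5, 165, 124 and 32.2 CPM in dividing cells against 4.18 to 7.54 CPM in non-dividing cells, and Ccnb2 at 75.0, 74.3, 45.6 and 45.7 CPM against 1.19 to 3.34 CPM. Not all growth genes followed. Cdkn1a, the p53-induced inhibitor p21, stood at 164, 115, 90.4 and 110.1 CPM in dividing and 97.3 to 109.8 CPM in non-dividing cells. Ccnd1, cyclin D1 of the early cycle, stood at 110.3, 91.9, 67.0 and 40.3 CPM in dividing and 121, 78.8, 70.6 and 98.4 CPM in non-dividing cells.

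Outside these lists, the 10 largest differences among 183 genes eligible by the naming rule were all higher in dividing cells. The naming rule took only called genes with the same direction in every library. Agreement over the 4 libraries was thus fixed by that rule and is no replication. The 10 genes are those of chromatin, the nuclear lamina, DNA repair and the microtubules, most of them known to move with the cycle. Their higher levels can thus follow from the choice of the cells, as for the listed cycle genes. Stmn1, which destabilizes microtubules, was the largest, at 201, 544, 416 and 220.3 CPM in dividing and 8.89 to 17.8 CPM in non-dividing cells. Hmgb2, a chromatin-bending protein, stood at 289, 1235, 782 and 572 CPM against 82.1 to 179 CPM. Ezh2, the methyltransferase of Polycomb, stood at 81.2, 138, 134 and 67.1 CPM against 16.7 to 24.1 CPM. Lmnb1 and Tmpo of the nuclear lamina, Hmgn2, the histone genes Hist1h2ap, Hist1h2ae and H2afv, and Rad51b, a recombination factor, made up the rest. The histone genes belong to families of near-identical copies, so their counts are uncertain.

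The first question of the design was how large the dividing share of macrophages was under each diet. In NCD, 21 of 159 macrophages were dividing, or 13.2% (95% Clopper-Pearson interval 8.37 to 19.5). In HFD replicate 1, 37 of 448 were dividing, or 8.26% (5.88 to 11.2), and in replicate 2, 126 of 1804, or 6.98% (5.85 to 8.26). In JQF, 19 of 324 were dividing, or 5.86% (3.57 to 9.01). The HFD mean was 7.62% ± 0.90 (SD, n = 2), and the intervals, which cover counting error only, overlapped between NCD and HFD replicate 1 and between JQF and both HFD replicates. No test was made on the shares, since an exact permutation of 1 library against 2 cannot reach 0.05. The log2 ratio of HFD to NCD was -0.79 and that of JQF to HFD -0.38.

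These shares moved with depth. Dividing cells had medians of 31403, 14996, 18212.5 and 19374 UMIs from NCD to JQF and non-dividing cells 13996, 11511, 10392.5 and 11406, and a deeper cell passes a fixed number of UMIs more easily. With each cell thinned to 5000 UMIs and shallower cells left out, the share was 6.17% in NCD (interval 2.76 to 11.6 at the mean counts of 100 draws), 5.73% and 4.78% in HFD replicates 1 and 2 (3.72 to 8.39 and 3.81 to 5.93), and 2.58% in JQF (1.10 to 5.10). At equal depth NCD was thus near HFD replicate 1, with a log2 ratio of HFD to NCD of -0.23, while JQF was lowest, with a log2 ratio of JQF to HFD of -1.03. JQF then held a mean of 7.67 dividing cells, and single draws gave JQF shares from 1.35% to 4.05% against 4.05% to 5.49% in HFD replicate 2. The rule was read on the thinned counts. Cells with Cd3 or Cd79 UMIs at full depth could thus enter where none was drawn, and the thinned cells are not a subset of the members. The counting intervals of JQF and both HFD libraries overlapped, and they say nothing of the spread between livers.

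**Figure D2:**
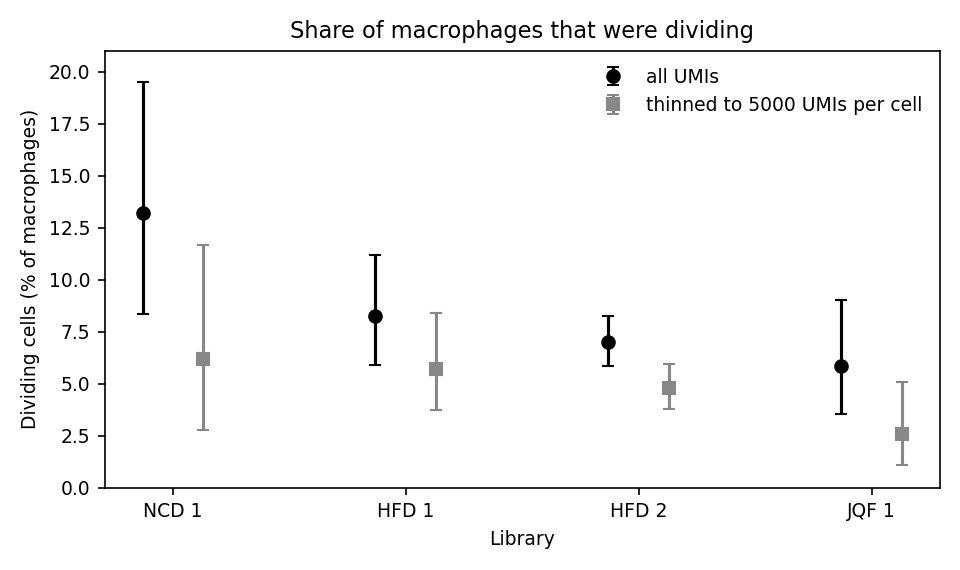
Percent of macrophages that were dividing in each library, with 95% Clopper-Pearson intervals for counting error, from all UMIs (black circles) and after thinning every cell to 5000 UMIs (grey squares, mean of 100 draws). The NCD value falls from 13.2% to 6.17% with thinning and then lies beside the HFD values of 5.73% and 4.78%, while JQF is lowest in both.

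Other cells of the same libraries, chosen from all UMIs and then thinned, gave rates of Mki67 and Top2a calls for comparison. Single T and B cells of NCD held up to 202 and 152 of these UMIs, so the rates of T and B cells do not measure false calls. T cells, here cells with 3 or more Cd3 UMIs, passed in 7.09%, 6.56%, 12.3% and 5.41% from NCD to JQF. B cells, with 3 or more Cd79 UMIs, passed in 2.38%, 4.48%, 4.46% and 3.62% in the same order. The thinned macrophage share lay above that of B cells in NCD and HFD and below it in JQF, with overlapping intervals in all 4 libraries. Neutrophils, which do not divide, passed in 2.94%, 4.33%, 13.03% and 2.99%, from 72, 45, 61 and 106 cells deep enough to thin, at medians of 3405 to 5852.5 UMIs over all neutrophils. The macrophage share lay below that of these deep neutrophils in HFD replicate 2 and in JQF. Over all neutrophils and all UMIs, 4.55%, 2.18%, 2.82% and 2.41% passed, below the macrophage share in each library, and single cells held up to 16, 33, 52 and 45 Mki67 and Top2a UMIs. Thinning kept the deepest neutrophils alone.

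Predicted doublets and cells with content of other types were more frequent among dividing cells in all 4 libraries, while summed marker lists went both ways. Scrublet, which scores likely doublets, placed 19.0%, 27.0%, 18.3% and 10.5% of dividing cells from NCD to JQF among the predicted doublets, against 10.1%, 6.10%, 8.08% and 7.22% of non-dividing cells. Cells with at least 0.5% of their UMIs from 1 other type's marker list, or with 2 or more UMIs of dendritic cell genes, made up 42.9%, 18.9%, 31.7% and 15.8% of dividing and 19.3%, 16.7%, 15.1% and 10.5% of non-dividing cells. The 10 endothelial markers summed to 2746, 79.7, 401 and 148 CPM in dividing cells and 1628, 140, 400 and 246 CPM in non-dividing cells, lower in dividing cells of HFD replicate 1 and JQF. The 11 T cell markers summed to 18.4, 89.2, 28.5 and 24.2 CPM in dividing and 5.23, 75.2, 41.6 and 53.2 CPM in non-dividing macrophages, and to 3391 to 5089 CPM in dividing T cells. The 8 hepatocyte markers summed to 165, 18.9, 56.9 and 86.0 CPM in dividing and 204, 59.4, 130 and 154 CPM in non-dividing cells, lower in dividing cells of all 4 libraries. The 8 neutrophil markers summed to 70.4, 48.6, 407 and 86.0 CPM in dividing and 98.8, 94.5, 112 and 231 CPM in non-dividing cells, higher in dividing cells of HFD replicate 2 alone. The 8 stellate and fibroblast markers summed to 9.19, 4.05, 189 and 2.69 CPM in dividing and 241, 4.57, 6.28 and 5.02 CPM in non-dividing cells, again higher in HFD replicate 2 alone. The 9 macrophage markers summed to 8315 to 11678 CPM in dividing macrophages and 48.9 to 111 CPM in dividing T cells. C1qa, C1qb and C1qc, which chose the cells, gave 5319, 5903, 8201 and 6680 CPM of the sums in dividing macrophages. This contrast was thus largely fixed by the rule. Without cells of other-type content the HFD to NCD log2 ratio of dividing shares was -0.54, and the part of such content in the other results was not tested beyond the values given.

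Of 6 dendritic cell markers tested, 3 were higher, where 4.31% of all genes were. Xcr1, the chemokine receptor of cross-presenting dendritic cells, stood at 1.53, 25.7, 21.8 and 29.5 CPM in dividing and 0, 1.99, 1.75 and 4.74 CPM in non-dividing cells (log2 fold change 3.33, SE 0.36, adjusted p = 6.54e-05). Flt3, the receptor that dendritic cell progenitors need, stood at 7.66, 21.6, 36.4 and 26.9 CPM against 0, 5.56, 5.57 and 18.7 CPM (1.99, SE 0.41, adjusted p = 0.0113). Wdfy4, which serves cross-presentation, stood at 147, 182, 155 and 185 CPM against 107, 104, 86.9 and 91.7 CPM (0.72, SE 0.14, adjusted p = 0.00675). Xcr1 was carried by 1, 2, 10 and 1 dividing cells and Flt3 by 1, 4, 12 and 2, so few members held these transcripts. Of the alternative settings that tested them, Xcr1 was called in 6 of 7, Flt3 in 7 of 11 and Wdfy4 in 7 of 14, with adjusted p up to 0.121, 0.795 and 0.638. Without cells of other-type content, a class that Xcr1 and Flt3 help to define, the log2 fold change of Wdfy4 was -0.26 and it was not called.

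The second question was whether the dividing cells looked resident or recruited. None of the 5 identity genes passed the edgeR quasi-likelihood test with library as a term, although levels in single libraries differed in either direction. Timd4 (chromosome 11, 46810800 to 46844332) stood at 259, 1.35, 126 and 188 CPM in dividing and 487, 3.38, 120.3 and 221 CPM in non-dividing cells (log2 fold change -0.44, SE 0.19, adjusted p = 0.248). The gene was nearly missing from HFD replicate 1, with 1 UMI in 37 dividing cells, and present in the 3 other libraries in both states.

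Cd163 (chromosome 6, 124304656 to 124330527) stood at 338, 4.05, 99.2 and 398 CPM in dividing and 426, 1.99, 114 and 279.8 CPM in non-dividing cells (-0.06, SE 0.18, adjusted p = 0.940). It repeated the pattern of Timd4, with 3 UMIs in the dividing cells of HFD replicate 1. Clec4f, a lectin restricted to Kupffer cells, stood at 1384, 444, 1664 and 1612 CPM against 1955, 431, 1718 and 1846 CPM (-0.23, SE 0.11, adjusted p = 0.321). HFD replicate 1 was thus the lowest library for all 3 resident genes, in dividing and non-dividing cells alike.

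Ccr2 (chromosome 9, 124101950 to 124113557) stood at 29.1, 90.5, 108 and 177 CPM in dividing and 38.2, 137, 128 and 135 CPM in non-dividing cells (-0.25, SE 0.17, adjusted p = 0.512). Cx3cr1 stood at 35.2, 142, 68.7 and 48.3 CPM against 34.0, 123, 85.7 and 106 CPM (-0.30, SE 0.19, adjusted p = 0.477). It overlaps annotated genes on its strand, so reads may be shared. Trem2 (chromosome 17, 48346401 to 48354147) stood at 39.8, 399.8, 209 and 139.7 CPM against 31.4, 499.5, 259 and 244 CPM (-0.39, SE 0.15, adjusted p = 0.198). All 3 recruited genes were lowest in NCD in both states.

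**Figure D3:**
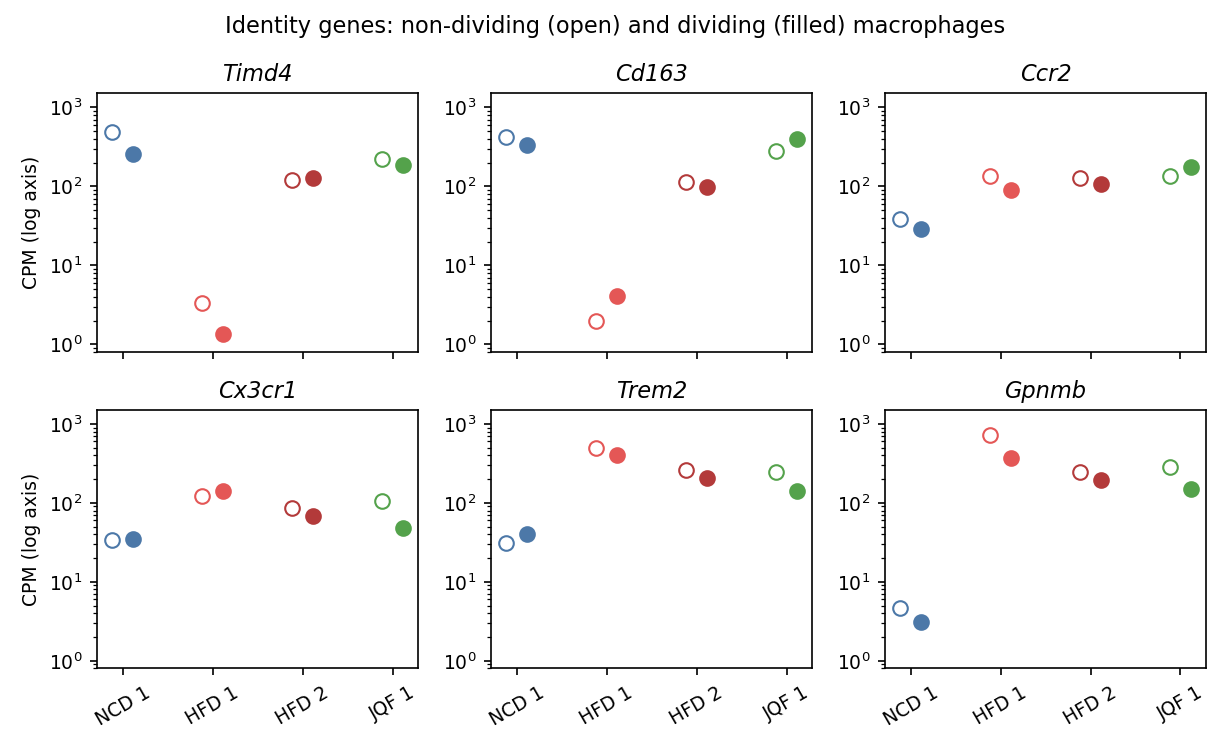
Level (CPM, log axis) of 6 identity genes in non-dividing (open) and dividing (filled) macrophages of each library. In HFD replicate 1 Timd4 is at 3.38 CPM in non-dividing and 1.35 CPM in dividing cells, far below the 3 other libraries.

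Counted by cell from all UMIs, most dividing macrophages of every library held at least 1 UMI of a recruited gene. So did most of all macrophages in the HFD and JQF libraries. At 5000 UMIs per cell this did not hold for NCD. Its dividing cells, a mean of 8.36, were 49.5% with resident genes alone, 28.0% with both and 10.8% with recruited genes alone. Recruited genes alone then made up 81.9% of dividing cells in HFD replicate 1, 51.6% in HFD replicate 2 and 46.4% in JQF. From all UMIs, 7 of 21 NCD dividing cells carried Timd4 or Cd163 with none of Ccr2, Cx3cr1 and Trem2, 2 carried recruited genes alone, 11 both and 1 neither. In HFD replicate 1, 30 of 37 carried recruited genes alone, 3 both, 4 neither and 0 resident genes alone. In HFD replicate 2, 77 of 126 carried recruited genes alone, 30 both, 8 resident genes alone and 11 neither. In JQF, 9 of 19 carried recruited genes alone, 6 both, 4 resident genes alone and 0 neither. Of all macrophages, recruited genes alone were in 7.55%, 83.3%, 53.4% and 38.6% from NCD to JQF, and in NCD resident genes alone were in 54.7% of all and 33.3% of dividing macrophages and both kinds in 30.8% and 52.4%.

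These classes rest on single UMIs, so the share of cells with a UMI was also taken in T cells, which should lack Timd4, Cd163 and Trem2. Timd4 had a UMI in 85.7%, 2.70%, 23.0% and 52.6% of dividing macrophages from NCD to JQF and in 0.104% to 0.654% of T cells. Cd163 had a UMI in 71.4%, 5.41%, 21.4% and 47.4% of dividing macrophages and in 0.104% to 0.583% of T cells. Trem2 had a UMI in 42.9%, 81.1%, 70.6% and 52.6% of dividing macrophages and in 0.131%, 1.30%, 2.60% and 0.805% of T cells. Median depths were 14996 to 31403 UMIs in dividing macrophages and 6740.5 to 11065 UMIs in T cells. T cells also express Ccr2 and Cx3cr1, so B cells (3 or more Cd79a and Cd79b UMIs) and endothelial cells (20 or more endothelial marker UMIs), all with under 10 C1q UMIs and no Cd3 UMI, were used for these genes. Ccr2 had a UMI in 14.3%, 37.8%, 41.3% and 47.4% of dividing macrophages, 1.19% to 5.40% of B cells and 0.636% to 3.85% of endothelial cells. Cx3cr1 had a UMI in 28.6%, 45.9%, 30.2% and 21.1% of dividing macrophages, 4.63% to 7.64% of B cells and 29.2%, 19.2%, 10.01% and 17.2% of endothelial cells. In NCD the Cx3cr1 share of dividing macrophages was thus not above that of endothelial cells (median 16387 UMIs). NCD cells classed by Cx3cr1 alone cannot be told from background. The recruited classes also count Trem2, in 42.9% of NCD dividing macrophages and 0.131% of NCD T cells. They count Ccr2 too, in 14.3% of NCD dividing macrophages and 1.19% of NCD B cells.

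At 5000 UMIs per cell the intervals of the dividing share overlapped between the identity classes within each library. The classes held means of 0.90 to 4.14 dividing cells in NCD and 0.14 to 3.56 in JQF. In HFD replicate 2, the largest library, it was 4.76% of macrophages with resident genes alone (interval 2.28 to 8.64) and 4.52% of those with recruited genes alone (3.26 to 6.09). It was 4.72% of those with both and 5.54% of those with neither. In JQF it was 3.25% with resident genes alone (0.58 to 9.79) and 2.99% with recruited genes alone (0.74 to 7.85), 1.79% with both (0.10 to 7.96) and 0.640% with neither (up to 16.7). In NCD it was 4.21% with resident genes alone (1.19 to 10.3) and 10.1% with recruited genes alone (0.18 to 47.5), the second from a mean of 8.87 cells. It was 11.9% with both (1.86 to 34.4) and 11.5% with neither (0.272 to 50.01), from means of 19.65 and 8.52 cells. In HFD replicate 1 it was 5.87% with recruited genes alone (3.62 to 8.92), while a mean of 1.52 cells held resident genes alone.

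Over the 4 libraries the resident share minus the recruited share was -2.17 percentage points ± 3.00 (SD, n = 4), resident being higher in 2 of 4 libraries. The exact two-sided sign-flip permutation test gave p = 0.5, with 0.125 as the smallest p that 4 libraries allow. From all UMIs the difference was -5.45 points with resident lower in all 4 libraries, where a deeper cell more easily shows both kinds of gene. This agreement rests in part on very few cells, since each library had equal weight. From all UMIs, the HFD replicate 1 class with resident genes alone held 2 macrophages, 0 of them dividing. The NCD class with recruited genes alone held 12 macrophages, 2 of them dividing. Neither with thinned counts nor from all UMIs could the test pass the threshold.

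**Figure D4:**
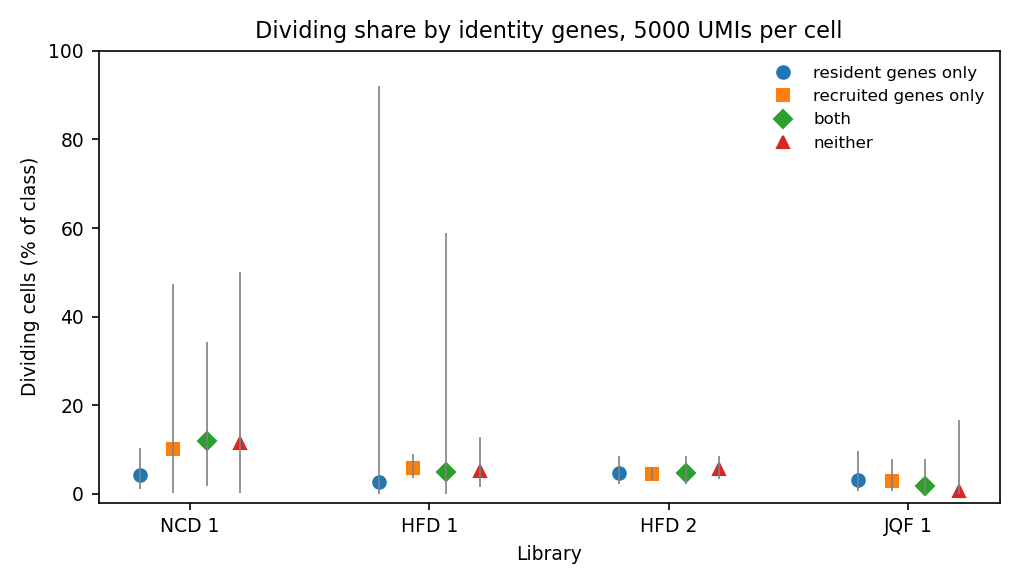
Percent of macrophages that were dividing within 4 classes of identity genes in each library, at 5000 UMIs per cell (means of 100 draws, bars 95% Clopper-Pearson intervals at the mean counts). In HFD replicate 2 the 4 classes lie between 4.52% and 5.54%, and the widest bar, in HFD replicate 1, belongs to a class with a mean of 1.52 cells.

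Genes of the lipid-associated state made up the identity list with the most calls between dividing and non-dividing cells. Of 18 genes tested, 8 were lower, 0 higher and 10 did not pass, where 1.36% of all genes tested were lower. Their median log2 fold change was -0.46, beside 0.0028 over all genes. Of the 6 general macrophage markers tested that the rule did not use, 1 was lower, Adgre1, which encodes the F4/80 antigen (-0.51, SE 0.12, adjusted p = 0.0293). The median of these 6 was -0.33, and 5 of 6 were lower in all 4 libraries, where 9.13% of all genes were, beside 9 of 18 lipid-associated genes. The difference between both lists was not tested. Apoe (chromosome 7, 19696109 to 19699188), a lipid carrier that macrophages secrete, stood at 6126, 13727, 15235 and 8353 CPM in dividing and 9516, 24232, 21680 and 17988 CPM in non-dividing cells (-0.82, SE 0.10, adjusted p = 0.000163), lower in 4 of 4 libraries.

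Gpnmb (chromosome 6, 49036546 to 49070929), a lysosomal glycoprotein of lipid-laden macrophages, stood at 3.06, 373, 197 and 150.4 CPM against 4.70, 719, 249 and 288 CPM (-0.77, SE 0.15, adjusted p = 0.00808). Cd63, a tetraspanin of late endosomes, stood at 4.59, 371, 322 and 274 CPM against 22.5, 786, 482 and 416 CPM (-0.88, SE 0.16, adjusted p = 0.00581). Both were lower in dividing cells of all 4 libraries. The lipase Lpl fell by 0.60 and the lysosomal proteases Ctsb, Ctsd and Ctsl fell by 0.48, 0.45 and 0.47 on the log2 scale. Atp6v0d2, a subunit of the lysosomal proton pump, fell by 1.48 but was lower in 3 of 4 libraries, and rested on 2, 27, 87 and 1 UMIs in dividing cells. Spp1, osteopontin, stood at 1.53, 155, 72.9 and 105 CPM against 0.523, 377, 174 and 63.8 CPM and did not pass (adjusted p = 0.165).

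CPM are shares of a class's UMIs, and dividing cells held more UMIs each. Counted per cell, dividing cells held means of 190.5, 275, 289 and 164 Apoe UMIs against 153, 324, 259 and 233 in non-dividing cells, so the dividing cells held more in NCD and HFD replicate 2 and fewer in HFD replicate 1 and JQF. The whole lipid-associated list held 422, 572, 539 and 439 UMIs per dividing cell against 307, 586, 465 and 461 per non-dividing cell. For Apoe and for the list as a sum, the lower levels were thus lower shares of each cell's UMIs, not fewer molecules in every library. Without HFD replicate 1, 3 genes of the list were lower, without JQF 5, without cells of other-type content 5, and with no library term 0.

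Of 19 Kupffer cell genes tested, 3 were lower and 0 higher, with a median of -0.28, where 1.36% of all genes were lower. Counted per cell, the whole list held 334, 104, 229 and 227 UMIs in dividing cells. Non-dividing cells held 257, 82.1, 145 and 164, fewer in all 4 libraries. This sum is of the whole list and does not show whether the 3 called genes held fewer UMIs per cell. Il18bp, the decoy of interleukin-18, stood at 228, 238, 385 and 209.5 CPM against 445, 341, 443 and 386 CPM (-0.68, SE 0.14, adjusted p = 0.0125). Hmox1, which degrades haem, stood at 907, 593, 765 and 830.0 CPM against 1903, 708, 839 and 1354 CPM (-0.59, SE 0.15, adjusted p = 0.0333), and Paqr9 was the third (-0.53, SE 0.14, adjusted p = 0.0458). Without the JQF library 0 of these genes passed, and 0 passed among cells with 5 or more Mki67 and Top2a UMIs. Vsig4, a complement receptor, stood at 1165, 31.1, 978 and 878 CPM against 1534, 235, 944 and 1174 CPM, and Marco, a scavenger receptor, at 289, 9.46, 178 and 1144 CPM against 798, 12.1, 171 and 729 CPM. Neither passed the test, and the 3 cells richest in Marco held 91.5% of its UMIs among JQF dividing cells.

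Of 14 recruited and transitional genes tested, 1 was lower and 0 higher, with a median of -0.33, beside the same 1.36% of all genes. This was F13a1, a transglutaminase of monocytes, at 12.3, 43.2, 33.1 and 59.1 CPM against 27.7, 54.8, 50.8 and 127 CPM (-0.78, SE 0.18, adjusted p = 0.0242). It was no longer called without HFD replicate 2 or without JQF, whereas without NCD 3 genes of this list were lower. Ly6c2, the marker of inflammatory monocytes, stood at 0, 10.8, 15.1 and 5.37 CPM against 2.09, 24.4, 23.8 and 15.9 CPM and missed the threshold (adjusted p = 0.0721). Lyz2, lysozyme, stood at 1951, 3185, 3109 and 6320 CPM against 2141, 5276, 4097 and 6266 CPM (adjusted p = 0.115). Per cell the whole list held 116, 89.5, 97.0 and 180 UMIs in dividing against 62.0, 96.7, 75.6 and 120 in non-dividing cells.

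**Figure D5:**
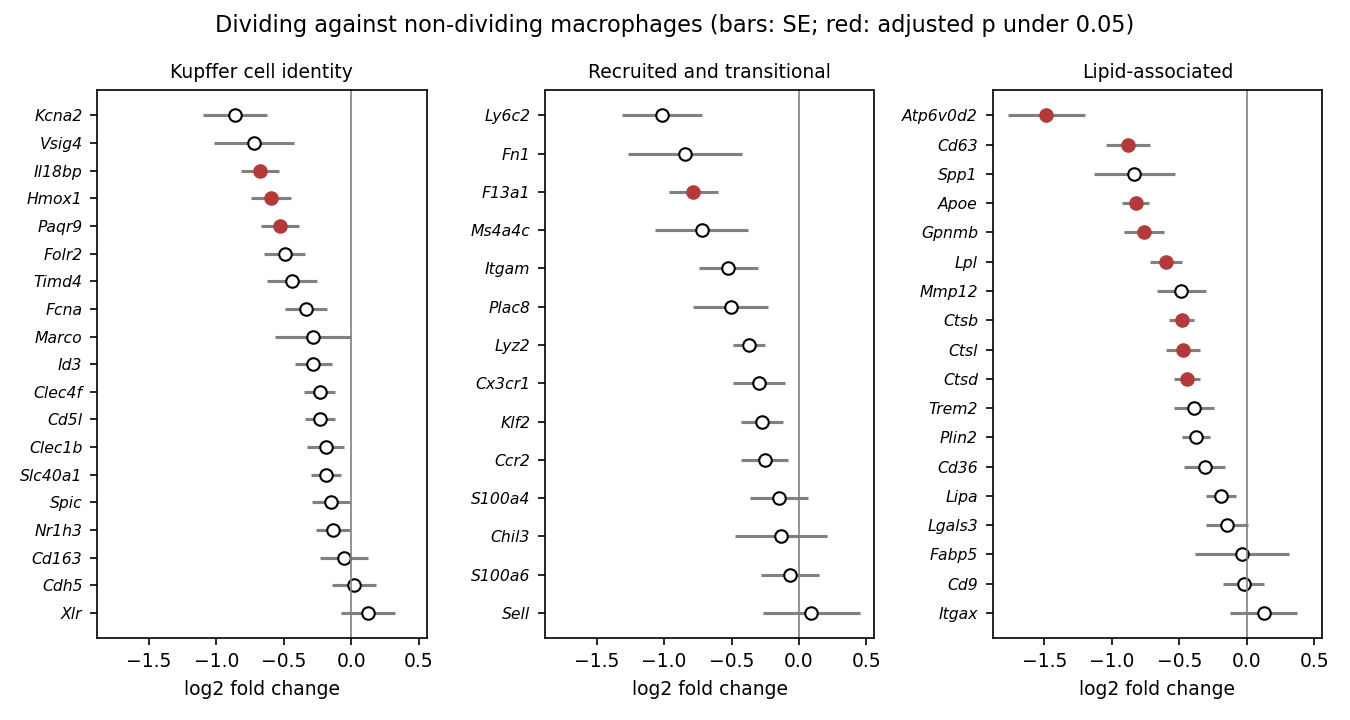
Log2 fold change of dividing against non-dividing macrophages with its SE for each gene tested in 3 identity lists, filled red where the adjusted p was under 0.05. The 8 red genes of the lipid-associated list lie between -1.48 and -0.45, against 3 red genes in the Kupffer cell list and 1 in the recruited list.

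Other lists also held genes that were lower in dividing cells, where 1.36% of all genes were. Of 12 interferon response genes, 3 were lower and 0 higher, and of 7 hepatocyte markers 2 were lower, Alb and Ttr, which encode plasma proteins. Per cell the interferon list held 70.6, 29.4, 23.8 and 20.0 UMIs in dividing cells. Non-dividing cells held 33.1, 19.0, 20.7 and 17.9. This sum is of the whole list and does not show whether the called genes held fewer UMIs per cell. The chemokine Cxcl9 stood at 170.0, 134, 87.9 and 167 CPM against 749.5, 163, 296 and 256 CPM (-1.31, SE 0.26, adjusted p = 0.0102), and Irf7 and Isg15 fell by 0.61 and 0.74 on the log2 scale. Of 14 alternative settings, Cxcl9 was called in 10, with values of -2.63 to -0.0055, Irf7 in 4 and Isg15 in 3. Of 8 MHC class II genes 0 passed in either direction. Among 19 growth factor and self-renewal genes 3 were lower and 0 higher, these being the transcription factors Klf4, Cebpb and Cebpa, which fell by 0.56, 0.43 and 0.61. These were called in 8, 4 and 6 of 14 alternative settings. Per cell the growth factor and self-renewal list held 251, 108, 126 and 113 UMIs in dividing cells. Non-dividing cells held 142, 88.2, 88.2 and 93.8. Csf1r, the receptor for the growth factor of macrophages, stood at 769, 499.8, 805 and 741 CPM against 854, 683, 845 and 872 CPM (adjusted p = 0.179).

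The third question was how the dividing cells differed between diets. Between HFD and NCD, 174 of 8994 genes were called (1.93%), 32 higher and 142 lower in HFD (0.356% and 1.58%), while DESeq2 called 59 higher and 22 lower. A gene's own spread came from the HFD pair and was moved by the edgeR fit toward a trend over all genes. The single NCD library was assumed to vary like that pair. In the lipid-associated list 4 of 18 genes were higher in HFD and 0 lower. Gpnmb, at 2 UMIs in NCD, had an HFD to NCD ratio of 77.95 (95% counting interval 21.5 to 645, adjusted p = 0.0245). Cd63, at 3 UMIs in NCD, had a ratio of 72.6 (24.8 to 353, adjusted p = 0.0190), and Spp1, at 1 UMI, a ratio of 60.3 (10.7 to 2391, adjusted p = 0.0331). Mmp12, the macrophage elastase, was the fourth, at 141 CPM in NCD and 967 and 805 CPM in HFD (adjusted p = 0.0434), and was called in 5 of 8 alternative settings (adjusted p up to 0.0880). In the non-dividing cells of NCD and of HFD replicates 1 and 2, Gpnmb was at 4.70, 719 and 249 CPM and Cd63 at 22.5, 786 and 482 CPM, higher in HFD as well.

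Of the 5 identity genes, none passed between HFD and NCD dividing cells. Trem2 came nearest, at 39.8 CPM in NCD and 399.8 and 209 CPM under HFD (2.98, SE 0.58, adjusted p = 0.0519). Ccr2 followed (1.83, SE 0.43, adjusted p = 0.0725) and then Cx3cr1 (1.60, SE 0.56, adjusted p = 0.144). Timd4 (-1.82, SE 1.13, adjusted p = 0.359) and Cd163 (-2.51, SE 0.99, adjusted p = 0.181) had wide errors, HFD replicate 1 lying near 0 and replicate 2 not. Among recruited genes 1 of 13 was higher, where 0.356% of all genes were. This was Plac8, at 15.3 CPM in NCD and 120.2 and 263 CPM in HFD (adjusted p = 0.0452), called in 5 of 7 alternative settings (adjusted p up to 0.118). Among Kupffer cell genes 0 of 19 passed.

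Further genes of the naming rule that were higher in HFD were Eno1, an enolase of glycolysis, at 3.06 CPM in NCD and 149.9 and 120.2 CPM in HFD, and Mmp13, a collagenase, at 3.06, 75.6 and 79.6 CPM. Eno1 has near-identical copies in the genome, so its counts are uncertain. Genes lower in HFD included Kitl, the ligand of the stem cell receptor Kit, at 609.5 CPM in NCD and 4.05 and 29.7 CPM in HFD (NCD to HFD ratio 25.8, interval 20.1 to 33.5, adjusted p = 0.0250). Kdr, the endothelial receptor for VEGF, stood at 466, 0 and 18.8 CPM, and 96.7% of its NCD UMIs lay in 3 cells. Its log2 fold change of -5.17 became -0.72 (adjusted p = 0.756) without cells of other-type content and -3.89 (adjusted p = 0.202) without predicted doublets. Prickle1, of planar cell polarity, and Pde4c, a phosphodiesterase, had 97.8% and 97.1% of their NCD UMIs in 3 cells. Cldn5, which seals endothelial junctions, was the other endothelial marker of 10 that was lower, and the summed endothelial markers moved with the same contrast (2746 CPM in NCD, 79.7 and 401 CPM in HFD). After cells of other-type content were removed, 413 of 7242 genes were called, 162 higher and 251 lower, and after predicted doublets were removed 39 of 7757, 6 higher and 33 lower.

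Between JQF and HFD dividing cells 2 of 8994 genes were called, both higher in JQF (0.0222%), while 518 had an unadjusted p under 0.05 and DESeq2 called 1. They were Pde4c, at 75.2 CPM in JQF and 0 and 0.837 CPM in HFD (adjusted p = 0.0488), and Magi3, a scaffold protein of cell junctions, at 153 CPM against 6.75 and 10.0 CPM (adjusted p = 0.0488). The UMIs of Pde4c lay in 3 of the 19 JQF cells and those of Magi3 in 2, and 0 genes were called once predicted doublets were removed (421 at an unadjusted p under 0.05). With counts simulated at these library sizes, 5% of 2-fold and 54% of 4-fold changes were recovered in this comparison. Between dividing and non-dividing cells 98% and 100% were recovered. The simulated counts scattered between libraries by a trend in spread fitted to these data. No baseline difference between libraries beyond that scatter was simulated. The changed genes were drawn from the more highly expressed genes. These rates thus do not cover weakly expressed genes. The same simulations gave 2 and 9 false calls.

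The identity genes of JQF dividing cells lay on both sides of the HFD values. Timd4 at 188 CPM and Cd163 at 398 CPM lay above both HFD libraries (1.35 and 126 CPM, and 4.05 and 99.2 CPM). Ccr2 was at 177 CPM, above 90.5 and 108 CPM. Cx3cr1 at 48.3 CPM, Trem2 at 139.7 CPM and Gpnmb at 150.4 CPM lay below both. None of these differences passed, the log2 fold change being 2.88, SE 1.00, adjusted p = 0.806 for Cd163 and -1.04, SE 0.52, adjusted p = 0.895 for Trem2. In the lipid-associated, Kupffer cell and recruited lists 0 of 18, 0 of 19 and 0 of 13 genes passed.

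Whether a diet difference was itself different in dividing and non-dividing macrophages was tested as an interaction. NCD and JQF were 1 library each, so a gene's own spread came from the HFD pair alone (1 residual degree of freedom). The single libraries were assumed to vary like that pair. The fit moves each gene's spread toward a trend over all genes, so its p-values rest largely on that trend. Between HFD and NCD 53 of 10025 genes passed (0.529%), 0.14% with a higher and 0.389% with a lower difference in dividing cells. Between JQF and HFD 20 passed (0.2%), 0.0998% in each direction. Among the 5 identity genes 0 passed in either, and the listed genes that did are given among the closing observations.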

How the data were processed

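Single-cell RNA was measured in 4 liver libraries (10x Genomics 3′ v3.1 chemistry). The deposited values are UMI counts per gene and barcode in filtered matrices, made by the authors with Cell Ranger against mm10. The labels name Cell Ranger 6.0.1 and Seurat 4.0.3, whereas the file headers give version 7.0.0, and whether intronic reads were counted is not settled. Raw matrices were not used here.

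From these counts, a barcode was kept from 500 detected genes upward if mitochondrial genes gave no more than 20% of its UMIs (total UMIs per library 67615639 to 108062769). Doublets were kept in the main analysis. Scrublet scores (scanpy 1.11.5) marked 0.8% of barcodes per 1000 barcodes as predicted doublets. UMIs were summed per library and class, and tested with edgeR 4.0.16 (R 4.3.3): TMM, filterByExpr, quasi-likelihood test, Benjamini-Hochberg over all genes, threshold 0.05, with library as a term for dividing against non-dividing cells (3 residual degrees of freedom) and group alone between diets (1). The interaction of state and group also left 1, from the HFD pair. DESeq2 1.42.0 was an alternative. Per the study's methods the livers were 1 NCD, 2 HFD and 1 JQF. The p-values rest on the spread between these libraries, moved for each gene toward a trend over all genes. With 1 residual degree of freedom they rest largely on that trend. Intervals are 95% and cover counting error only.

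For thinning, 5000 UMIs were drawn per cell 100 times, a number chosen after single draws were seen to differ, and thinned fits used 1 draw. The macrophage rule, with its Cd3 and Cd79 part, was read on the drawn counts. Genes were named from 23 lists of 318 genes, plus the 10 largest called changes per contrast at a mean of at least 50 CPM with 1 direction. The members and lists were chosen with earlier results of these data known. Coordinates are GRCm38 (GENCODE M21). Both fits were tested on simulated data. Alternatives covered thresholds, scaling, filters, doublets, depth and left-out libraries.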

Additional observations from a re-analysis of the deposited data

Results flagged for a closer look

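For 10 listed genes the HFD to NCD difference was itself different in dividing and non-dividing macrophages, and for 5 the JQF to HFD difference was, by the edgeR interaction of cell state and group. Values are log2 differences of differences (dividing minus non-dividing), with adjusted p for genes outside the cell cycle lists. Levels are CPM in the order NCD, HFD replicate 1, HFD replicate 2 and JQF. Between HFD and NCD, 3 replication genes were among them. Mcm5 gave 3.10, Pola1, a DNA polymerase subunit, 2.22 and Pcna 1.56. The cells were chosen for Mki67 and Top2a, and the libraries passed that threshold by different amounts. Differences of cell cycle genes between libraries can thus follow from the rule, and they support nothing. Pcna stood at 189.9, 458, 476 and 249.8 in dividing and 183, 163, 151 and 166 in non-dividing cells. Ckap2l, of the spindle and likewise a cell cycle gene, gave 1.72, at 141, 55.4, 59.0 and 134 against 60.1, 7.74, 7.54 and 29.0. Its level in dividing cells was lower in HFD while its distance from the non-dividing cells was larger.

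The interferon-induced Ifit1 and Ifit3 gave -2.77 (adjusted p = 0.00225) and -2.20 (0.0106), Ifit1 standing at 70.4, 25.7, 22.6 and 18.8 in dividing and 16.7, 48.6, 34.6 and 22.3 in non-dividing cells. In NCD 97.8% of its 46 dividing UMIs lay in 3 cells. Kitl gave -2.28 (0.00413), Kdr -1.83 (0.0299) and Fabp5, a fatty acid carrier, -2.96 (0.0134), Fabp5 standing at 42.9, 199.9, 249 and 467 against 8.89, 509, 284 and 271. Ccr7, a homing receptor of dendritic and T cells, gave 3.801 (0.0375), at 3.06, 20.3, 16.7 and 0 against 16.7, 6.55, 7.38 and 25.1, and its dividing UMIs came from 1, 1, 6 and 0 cells.

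Between JQF and HFD, Magi3 gave 3.79 (adjusted p = 6.94e-05) with its JQF UMIs in 2 cells. Kif11, a spindle motor, gave -4.21, at 53.6, 95.9, 97.1 and 40.3 against 1.05, 1.39, 1.31 and 10.9. Its value rests in part on the high JQF level in non-dividing cells, and as a cell cycle gene it can follow from the rule. S100a8, a neutrophil gene, gave -4.86 (0.00519), and 78.9% of its UMIs in dividing cells of HFD replicate 2 lay in 3 cells. Spp1 gave 2.03 (0.0136), at 1.53, 155, 72.9 and 105 against 0.523, 377, 174 and 63.8, with 97.4% of its JQF dividing UMIs in 3 cells. Ccr7 gave -10.98 (0.0136), a fitted value that is no bound because JQF dividing cells held 0 of its UMIs.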

How the results depend on the processing

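The log2 ratio of the dividing share of HFD to that of NCD was -0.79 and stayed below 0 in every setting run. It was -1.11 with 3 or more and -1.24 with 5 or more Mki67 and Top2a UMIs, -0.23 at 5000 UMIs per cell, -0.54 without cells of other-type content, and -0.92 to -0.68 with 1 HFD library left out. That of JQF to HFD was -0.38. It was -0.087, -0.92 and -1.27 with 1, 3 and 5 or more UMIs, -1.03 at 5000 UMIs, -0.17 without predicted doublets, and -0.49 to -0.25 with 1 HFD library left out.

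Between dividing and non-dividing cells 568 genes were called. The count was 1079 with no gene filter, 333 at 5000 UMIs with all 4 libraries, 304 without cells of other-type content, 227 without the library term, and 301 to 602 with 1 library left out, 301 without HFD replicate 2 and 309 without HFD replicate 1. Lipid-associated genes called lower (8) became 13 with no filter, 5 without cells of other-type content, 5 at 5 or more UMIs, 0 without the library term, and 3 to 10 with 1 library left out. Kupffer cell genes called lower (3) became 10 with no filter, 1 with no scaling, 1 at 5000 UMIs with all 4 libraries, 1 without predicted doublets, 1 without cells of other-type content, 0 at 5 or more UMIs, 0 without the library term, and 0 to 2 with 1 library left out. Recruited genes called lower (1) became 8 with no filter, 7 at 5000 UMIs, 0 at 5000 UMIs with all 4 libraries, 0 without cells of other-type content, 0 at 5 or more UMIs, 0 without the library term, and 0 to 3 with 1 library left out.

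For HFD against NCD 174 calls became 273 with no scaling, 81 with DESeq2, 1432 with no filter, 39 without predicted doublets, 519 at 20 or more C1q UMIs, 413 without cells of other-type content and 277 at 5 or more UMIs. For JQF against HFD 2 became 1 with DESeq2, 124 with no filter, 11 at 5000 UMIs with all 4 libraries, 0 without predicted doublets and 5 without cells of other-type content. Cd163 between dividing and non-dividing cells went from -0.06 to 0.0081 with no scaling, 0.017 at 5000 UMIs with all 4 libraries, 0.082 without predicted doublets, 0.040 without cells of other-type content and -0.30 to 0.093 with 1 library left out, and Marco from -0.28 to -0.72 to 0.21 with 1 library left out. Wdfy4 went to -0.26 without cells of other-type content. Between JQF and HFD, Spp1 went to 0.34 and Magi3 to -0.41 without predicted doublets, and Spp1 to 0.59 without HFD replicate 1. The causes were not tested. Removal of other-type content, the 5-UMI threshold and thinning with all 4 libraries were added after the data were seen. Of the values that answer a comparison, 45 stayed and 50 moved at other settings. Staying meant within the spread for ratios of shares and within 1.5 times for counts of calls. For the identity classes it meant the same sign alone, so the step from -2.17 to -5.45 points with all UMIs was counted as staying. Of the values of named genes, 475 kept their direction and side of the threshold, 138 lost and 38 gained the call, 25 with no test moved by more than the spread, and 11 changed sign. With all UMIs every library met the minimum of 10 cells. At 5000 UMIs it left HFD replicates 1 and 2 alone, and at 5 or more UMIs JQF left the fits. Libraries could not be paired between the groups, which held different mice. With 19 to 126 dividing cells a library and 1 NCD and 1 JQF library, 4-fold differences could be missed.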

Other observations

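The absence of Cd3 and Cd79 UMIs removed candidates in every library. Cells that met the C1q and the Mki67 and Top2a thresholds whatever their Cd3 and Cd79 UMIs numbered 27 in NCD, 61 and 209 in HFD replicates 1 and 2, and 31 in JQF, or 328 in all. In the dividing T cells of the same libraries, the licensing and replication list reached 1939, 2719, 2885 and 2726 CPM in the order NCD, HFD replicate 1, HFD replicate 2 and JQF, above dividing macrophages in all 4 libraries. Their mitosis list reached 4774, 4915, 5705 and 5290 CPM, likewise above dividing macrophages.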
